A study of Homo sapiens with 16 samples.

Results

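Immediate early genes are switched on within minutes of a growth or stress signal, without new protein synthesis. The 10 taken here were chosen by name: FOS, FOSB, FOSL1, JUN, JUNB, EGR1, ATF3, IER2, DUSP1 and MYC. All 10 were among the 20356 genes of the count table, and all 10 passed the filter on low counts in each of 5 comparisons. The RNA came from PC3, a prostate cancer line of human origin, in 4 groups of 4 libraries: control monolayer cells, DDX4-null monolayer cells, control xenograft tumors and DDX4-null xenograft tumors. DDX4 is an RNA helicase of germ cells, and the design asked what it does to the cancer-promoting properties of PC3 cells. How DDX4 was inactivated, whether the null cells were 1 clone, the kind and age of the host animal, and whether replicates were separate cultures or animals were not given in the sources used here. The spread behind each p-value is thus that between libraries and could be technical.

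The Fos proteins (FOS, FOSB and FOSL1) pair with the Jun proteins (JUN and JUNB) to form the AP-1 transcription factor, and ATF3 is a related leucine zipper protein that is induced by stress. EGR1 is a zinc finger transcription factor, MYC drives growth and ribosome production, IER2 is a nuclear protein of less well known function, and DUSP1 is a phosphatase that switches off MAP kinases and so limits the signal that induced it. Serum response factor (SRF), bound to CArG boxes, and CREB, bound to cyclic AMP response elements (CRE), carry the signal to many of these promoters, and the RNAs are short-lived. In epithelial cancer cells FOSL1 is often the lasting Fos protein, while FOS, FOSB and EGR1 appear briefly after a stimulus.

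Library totals ran from 12204254 to 25443952 counts. DDX4 itself had 10, 7, 13 and 11 counts summed over control cells, DDX4-null cells, control tumors and DDX4-null tumors, so its RNA does not check the labels at this depth. The 7 epithelial and PC3 markers were counted in every group, with VIM highest, and of the 5 luminal prostate markers KLK2 had 0 counts in every group. Fibroblast markers (9 genes, COL1A1 highest) summed to 24.0 to 31.3 CPM (counts scaled to library size with TMM factors) in control cells, 45.6 to 57.8 in DDX4-null cells, 1386 to 1873 in control tumors and 1675 to 10770 CPM in DDX4-null tumors. The highest of these was DDX4-null tumor 1, where the other 3 DDX4-null tumors reached at most 1919 CPM. The epithelial and PC3 markers also summed highest in that tumor, to 6055 CPM. Mean VIM was 769 CPM in control cells and 2714 CPM in DDX4-null tumors, and how much of it came from PC3 cells was not tested. Leukocyte markers (8 genes) had median sums of 1.74 and 1.63 CPM in control and DDX4-null cells and 21.2 and 31.7 CPM in control and DDX4-null tumors, and reached 70.7 CPM in DDX4-null tumor 1. Skeletal muscle markers (7 genes) summed to at most 1.35 CPM in cells and 6.44 to 316 CPM in tumors. The 5 endothelial and pericyte markers in the table summed to 20.1 to 36.2 CPM in cells and 22.2 to 46.2 CPM in tumors. The part of these cells in the tumor results below was not tested, and in bulk RNA fewer cells of a type and less RNA per cell cannot be told apart.

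The 250 bases upstream of 5 members are shown first. Whether the motifs in them relate to the changes below was not tested. RefSeq (GRCh38.p14) gave this window for 8 of the 10 members. Capitals mark the motifs searched on both strands: the CRE (TGACGTCA), its core (TGACG), the AP-1 site (TGANTCA), the E-box (CACGTG), the EGR site (GCGTGGGCG) and the CArG box. A whole CRE holds 2 cores, 1 on each strand. The windows are chr14:75278578-75278827 (plus strand) for FOS, chr19:45467746-45467995 (plus) for FOSB, chr19:12791236-12791485 (plus) for JUNB, chr5:138465229-138465478 (plus) for EGR1 and chr5:172771196-172771445 (minus) for DUSP1.
FOS: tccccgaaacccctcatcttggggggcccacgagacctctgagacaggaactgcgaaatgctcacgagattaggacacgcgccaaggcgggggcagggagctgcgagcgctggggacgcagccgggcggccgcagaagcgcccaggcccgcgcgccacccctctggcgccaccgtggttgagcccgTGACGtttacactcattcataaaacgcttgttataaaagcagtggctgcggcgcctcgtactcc
FOSB: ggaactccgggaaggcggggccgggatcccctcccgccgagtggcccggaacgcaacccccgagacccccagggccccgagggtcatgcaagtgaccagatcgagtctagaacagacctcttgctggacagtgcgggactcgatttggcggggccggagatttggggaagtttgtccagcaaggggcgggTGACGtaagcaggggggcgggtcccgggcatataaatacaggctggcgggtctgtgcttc
JUNB: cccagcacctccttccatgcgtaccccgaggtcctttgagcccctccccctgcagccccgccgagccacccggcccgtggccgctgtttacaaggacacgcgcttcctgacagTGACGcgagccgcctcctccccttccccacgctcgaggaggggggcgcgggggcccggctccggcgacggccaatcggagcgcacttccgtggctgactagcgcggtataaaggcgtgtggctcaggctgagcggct
EGR1: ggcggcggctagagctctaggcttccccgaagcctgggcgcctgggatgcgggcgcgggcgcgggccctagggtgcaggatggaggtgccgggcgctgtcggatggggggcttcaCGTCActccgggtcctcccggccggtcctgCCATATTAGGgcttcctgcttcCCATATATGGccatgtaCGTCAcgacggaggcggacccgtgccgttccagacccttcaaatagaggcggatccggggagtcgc
DUSP1: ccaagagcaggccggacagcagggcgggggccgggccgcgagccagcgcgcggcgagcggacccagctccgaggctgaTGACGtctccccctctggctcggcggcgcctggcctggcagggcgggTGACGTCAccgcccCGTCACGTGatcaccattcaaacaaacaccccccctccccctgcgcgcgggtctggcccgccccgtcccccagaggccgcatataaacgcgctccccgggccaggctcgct

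FOS and FOSB each held 1 CRE core, 64 and 60 bases upstream of the start at its far end. JUNB also held 1, farther upstream at 137 bases, and JUN and IER2 had 1 each at 123 and 140 bases. EGR1 was the only one of the 8 with CArG boxes, CCATATTAGG and CCATATATGG, which began 105 and 83 bases upstream, and it held 2 cores. DUSP1 had a whole CRE at 125 bases, 4 cores and an E-box that overlaps 1 of them. Neither of the 2 ATF3 windows held any of the 6 motifs, and other possible ATF3 starts were not searched. Of 35116 promoter windows, 21.2% held a core, 1.65% a whole CRE, 1.16% a CArG box, 6.34% an E-box, 6.57% an AP-1 site and 0.720% an EGR site. A match describes letters in the window and is not a measured binding site. Bases outside these windows were not searched, so a gene without a match here may hold the motif elsewhere.

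In DDX4-null monolayer cells the immediate early genes split. FOSB, JUNB, FOS and JUN were lower than in control cells, while EGR1, ATF3 and MYC were higher, and FOSL1, IER2 and DUSP1 did not pass the test. By edgeR's quasi-likelihood test with Benjamini-Hochberg adjustment over 13006 genes, 3 of the 10 were called higher and 4 lower (adjusted p under 0.05). Among all genes tested 67.3% were called, 35.0% higher and 32.3% lower, so 7 of 10 is near the background. Libraries of both groups did not overlap for 6 members, against 59.3% of all genes. Scaling by library totals called 5 members higher and 3 lower, with FOSL1 (0.30, adjusted p = 0.0325) and DUSP1 added and JUN lost, while 5030 genes rose and 3705 fell in place of 4555 and 4201. The median log2 change of the 10 was 0.12, beside 0.021 over all genes.

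Among the Fos family, FOSB (ENSG00000125740) stood at 33.4, 41.9, 36.4 and 33.4 CPM in the 4 control monolayers and at 9.17, 10.7, 9.96 and 8.18 CPM in the 4 DDX4-null monolayers. The groups lay far apart, and FOSB changed by -1.94 ± 0.12 on the log2 scale (SE), a 3.83-fold fall (adjusted p = 5.2e-11). FOS (ENSG00000170345) was measured at 25.2, 24.3, 21.8 and 27.4 CPM in control cells and 16.2, 18.5, 16.9 and 18.5 CPM in DDX4-null cells. These groups did not overlap either, and the log2 change was -0.49 ± 0.11 (adjusted p = 0.00056). Genes of chromosome 14, where FOS lies, had a median log2 change of -0.47 in this comparison, and FOS stood at -0.020 ± 0.11 once changes were centred by chromosome (adjusted p = 0.886). The FOS call also did not hold in a model of all 16 libraries (adjusted p = 0.177).

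FOSL1 (ENSG00000175592), a Fos protein that lacks a strong activation domain, was at 777, 713, 719 and 797 CPM in control cells. In DDX4-null cells it was at 774, 1204, 781 and 785 CPM, so that only DDX4-null replicate 2 stood apart. The log2 change was 0.24 ± 0.13 (95% interval -0.033 to 0.51, adjusted p = 0.112), and it was 0.055 without DDX4-null replicate 2. Chromosome 11 had a median of -0.27, and the centred FOSL1 change of 0.51 passed the test (adjusted p = 0.0021).

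The Jun genes were both lower, JUNB by more. JUNB (ENSG00000171223), a Jun protein with weaker activation than JUN, was at 222, 270, 244 and 199 CPM in control cells and 134, 135, 132 and 113 CPM in DDX4-null cells. It changed by -0.87 ± 0.11 on the log2 scale (adjusted p = 7.2e-07), with every DDX4-null library below every control library. JUNB shares 259 exon bases with HOOK2 on the opposite strand in GENCODE v29, and the strand setting of the counting was not given in the sources used here. JUN (ENSG00000177606) was at 93.7, 109, 100 and 74.6 CPM in control cells and 82.0, 76.8, 82.5 and 73.3 CPM in DDX4-null cells, where the ranges overlapped. Its log2 change of -0.26 ± 0.11 was just past the threshold (adjusted p = 0.0430) and no longer passed when any 1 of 5 libraries was left out: control replicate 1, 2 or 3, or DDX4-null replicate 2 or 4, where the largest adjusted p was 0.150. With library totals in place of TMM it was -0.20 (adjusted p = 0.163), and with a filter at 5 CPM the adjusted p was 0.0569. After centring by chromosome JUN was at -0.16 (adjusted p = 0.230).

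The other transcription factors rose. EGR1 (ENSG00000120738) went from 4.57, 7.17, 7.11 and 5.24 CPM in control cells to 13.6, 13.5, 16.4 and 11.9 CPM in DDX4-null cells. That was a log2 change of 1.19 ± 0.16, or 2.29-fold (adjusted p = 1.7e-06), on 69 to 127 counts per control library. ATF3 (ENSG00000162772) was at 116, 117, 115 and 101 CPM in control cells and at 201, 174, 186 and 177 CPM in DDX4-null cells, a log2 change of 0.72 ± 0.094 (adjusted p = 1.5e-06). MYC (ENSG00000136997) stood at 453, 449, 433 and 499 CPM in control cells and at 753, 957, 735 and 773 CPM in DDX4-null cells, a change of 0.81 ± 0.10 (adjusted p = 1.2e-06). For each of these 3 genes all DDX4-null libraries lay above all control libraries. MYC lies on chromosome 8, whose genes had a median change of 0.25, and it still passed at 0.56 after centring (adjusted p = 0.00010).

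Neither IER2 nor DUSP1 passed the test in monolayers. IER2 (ENSG00000160888) was at 219, 252, 231 and 190 CPM in control cells and 282, 210, 230 and 216 CPM in DDX4-null cells, with a log2 change of 0.072 ± 0.11 (95% interval -0.16 to 0.31, adjusted p = 0.586). DUSP1 (ENSG00000120129) was at 202, 191, 197 and 222 CPM in control cells and 239, 251, 215 and 208 CPM in DDX4-null cells. Its change was 0.17 ± 0.095 (95% interval -0.030 to 0.37, adjusted p = 0.124), it passed with library totals (0.24, adjusted p = 0.0244), and it was -0.023 after centring by chromosome. IER2 shares 946 exon bases with AC011446.2, on the opposite strand, in GENCODE v29.

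**Figure D1:**
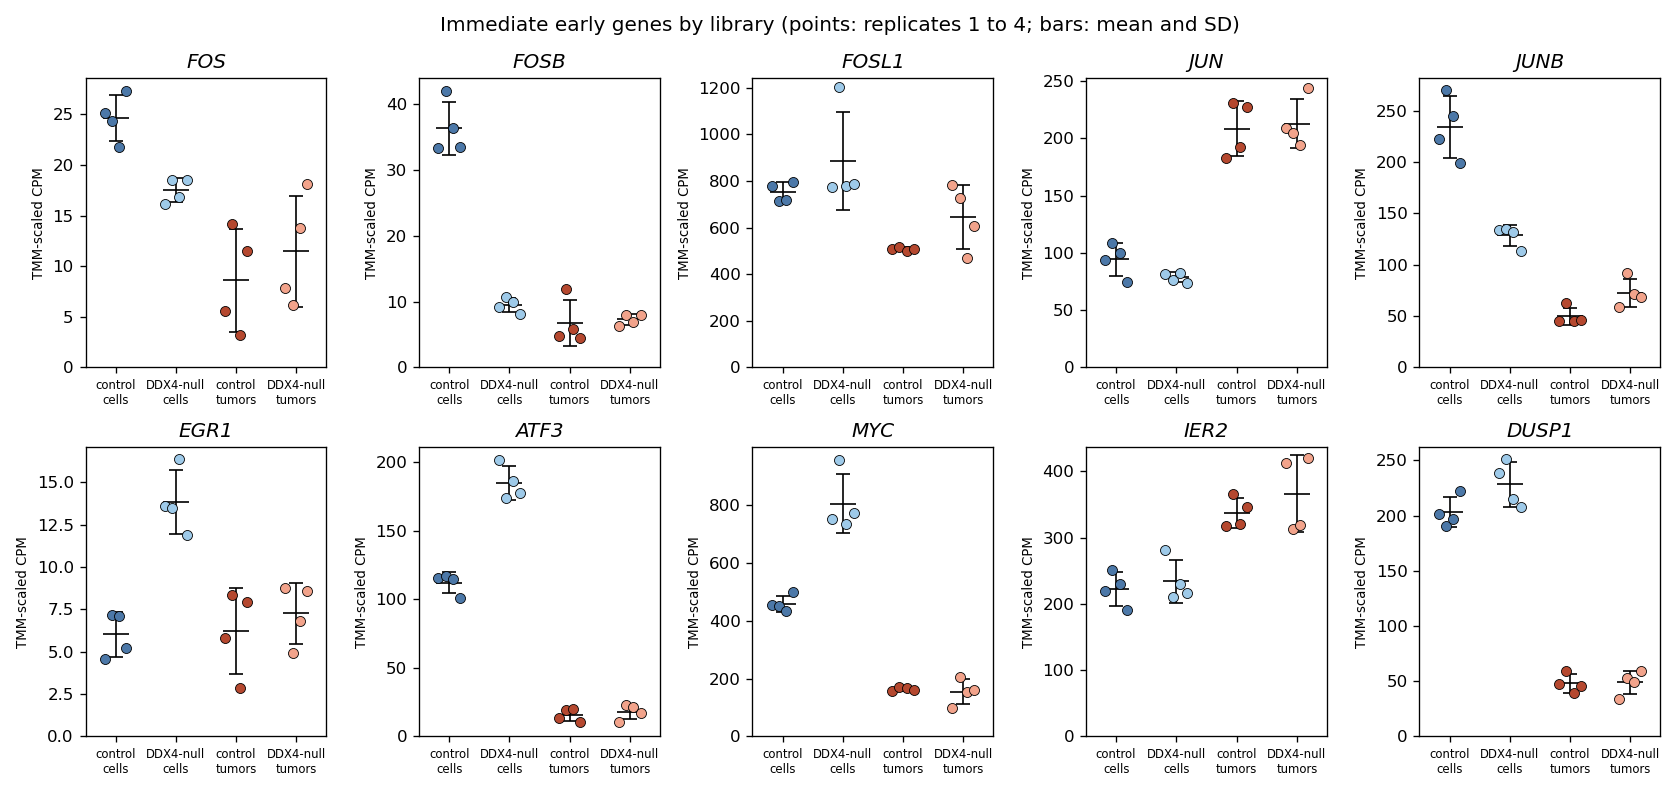
Level of each immediate early gene in TMM-scaled CPM (linear axes from 0), with points for replicates 1 to 4 of each group and bars for the mean and SD. FOSB, JUNB, ATF3, DUSP1 and MYC sit lower in both tumor groups than in control cells, JUN and IER2 sit higher, and EGR1 stands out in DDX4-null cells alone.

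In tumors none of the 10 genes differed between DDX4-null and control libraries by edgeR with adjustment over 12942 genes, where 2.09% of all genes were called, 0.981% higher and 1.10% lower. Libraries of both groups overlapped for all 10, whereas they did not for 12.4% of genes. The members' median log2 change was 0.17, beside -0.00061 over all genes. At an unadjusted p under 0.05 there were 2, JUNB and FOSL1, and DESeq2 called 1, JUNB. Over all 12942 genes DESeq2 called 880. JUNB was at 45.5, 62.5, 45.0 and 46.2 CPM in control tumors and at 58.8, 91.5, 71.7 and 68.4 CPM in DDX4-null tumors. All 4 DDX4-null tumors were above the mean of the controls, but DDX4-null tumor 1 lay below control tumor 2, and the log2 change was 0.54 ± 0.14 (adjusted p = 0.0803). JUNB passed without DDX4-null tumor 1 (0.63, adjusted p = 0.0363), the tumor with the highest fibroblast markers. It also passed with DESeq2 (adjusted p = 0.0102), with the replicate number as a block (0.54, adjusted p = 0.0139) and in the model of all 16 libraries (adjusted p = 0.0185). In all, JUNB passed in 4 of 16 alternatives, and its adjusted p reached 0.241 in the others.

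FOSL1 showed 508, 518, 499 and 509 CPM in control tumors, the tightest of the 40 gene and group sets. In DDX4-null tumors it showed 783, 725, 472 and 608 CPM, with 3 libraries above and 1 below the whole control range, and the log2 change was 0.35 ± 0.14 (95% interval 0.037 to 0.66, adjusted p = 0.194). FOS was uneven in both groups. Control tumors held 5.57, 14.2, 3.18 and 11.5 CPM and DDX4-null tumors 7.90, 6.15, 13.7 and 18.2 CPM, so the change of 0.42 ± 0.44 had a 95% interval from -0.54 to 1.39 (adjusted p = 0.604). EGR1 was at 5.78, 8.36, 2.84 and 7.95 CPM in control tumors, with replicates 2 and 4 high and replicate 3 lowest, as for FOS. In DDX4-null tumors EGR1 was at 8.77, 4.89, 6.84 and 8.58 CPM, and its change was 0.22 ± 0.31 (95% interval -0.46 to 0.90, adjusted p = 0.710).

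For the other 6 members the groups of tumors overlapped as well. FOSB held 4.81, 11.9, 5.83 and 4.48 CPM in control tumors, with control tumor 2 alone above the rest, and 6.25, 7.94, 6.95 and 7.95 CPM in DDX4-null tumors (change 0.11, 95% interval -0.51 to 0.73). MYC held 158, 172, 168 and 160 CPM in control tumors. DDX4-null tumors held 99.5, 206, 152 and 162 CPM, lowest in tumor 1, and the MYC change was -0.088 (interval -0.45 to 0.28) with tumor 1 and 0.074 without it. The intervals of JUN (-0.21 to 0.26), IER2 (-0.14 to 0.38) and DUSP1 (-0.33 to 0.38) left out a change of 1.5-fold in either direction. That of ATF3 reached from -0.33 to 0.75.

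**Figure D2:**
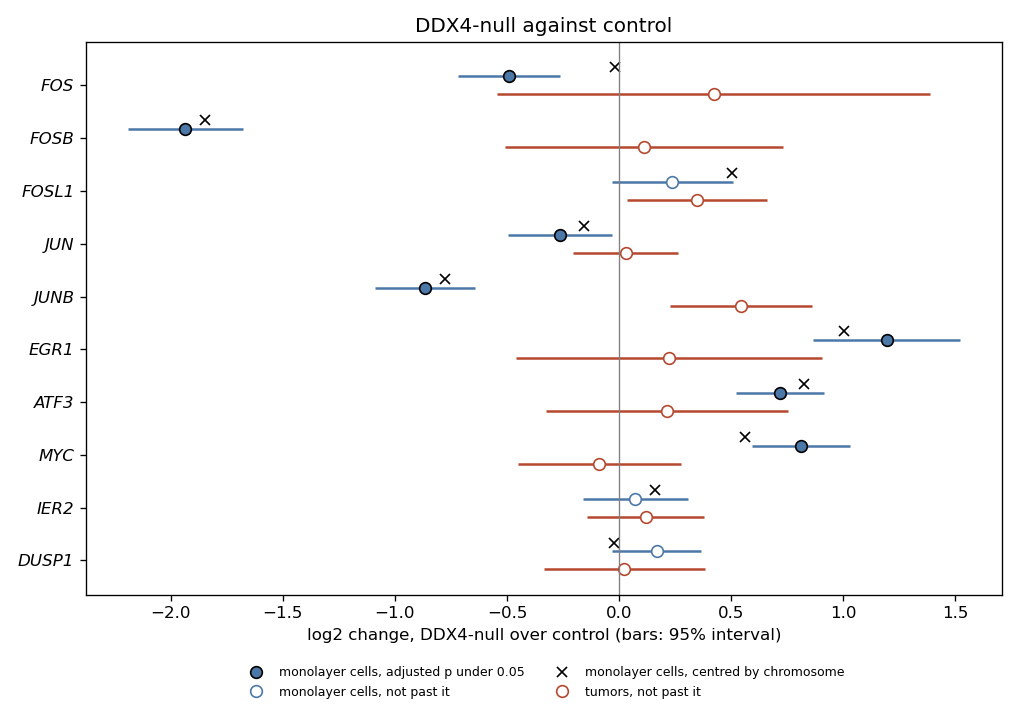
Log2 change of DDX4-null over control for each gene, in monolayer cells (blue) and tumors (red), with bars for the 95% interval, filled points for an adjusted p under 0.05 and crosses for monolayer changes centred by chromosome. In monolayers 7 points are filled and lie on both sides of 0, in tumors none is, and the FOS cross lies at -0.020.

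The test of the difference itself, the genotype change in tumors minus that in cells in a model of all 16 libraries, called 4 of the 10, while 52.8% of 13603 genes were called. FOSB (2.06 ± 0.30, adjusted p = 1.1e-05) and JUNB (1.41 ± 0.19, adjusted p = 3.0e-06) were shifted upward in tumors relative to cells. MYC (-0.90 ± 0.20, adjusted p = 0.00097) and EGR1 (-0.97 ± 0.37, adjusted p = 0.0312) were shifted downward. FOSB, JUNB and MYC passed in all 23 alternatives, whereas EGR1 passed in 16 and was lost without control cells 1 or 4, DDX4-null cells 3, control tumors 2 or 4, or DDX4-null tumor 2 (largest adjusted p = 0.0814). EGR1 was also lost after centring by chromosome (adjusted p = 0.0712), where FOSB stood at 1.92, JUNB at 1.28 and MYC at -0.67. For the genotype change in cells, chromosome medians ran from -0.73 (chromosome 7) to 0.48 (chromosome 21). In tumors they ran from -0.19 (chromosome 20) to 0.061 (chromosome 13), so the chromosome-wide shifts of the cells were not seen at that size in tumors. The part of this in the contrasts was not tested. FOS had a contrast of 0.92 ± 0.46 (adjusted p = 0.0986) and ATF3 of -0.50 ± 0.26 (adjusted p = 0.109). The contrasts of JUN, FOSL1, DUSP1 and IER2 lay between -0.14 and 0.29. Scaling by library totals moved the median over all genes from -0.017 to -0.16 and the called genes from 3532 up and 3649 down to 2721 up and 4404 down.

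Control tumors differed from control monolayers in 9 of the 10 genes: JUN and IER2 were higher in tumors, EGR1 did not pass, and the other 7 were lower. Of 12858 genes tested 64.9% were called, 33.9% higher and 31.0% lower, and libraries did not overlap for 9 members against 58.1% of genes. The members' median log2 change was -1.50, beside 0.020 over all genes. With library totals the median of all genes moved to 0.19, 5569 genes rose and 2870 fell in place of 4354 and 3986, and the same 2 and 7 counts of members were called in each direction.

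The largest fall was that of ATF3, from 101 to 117 CPM in control cells to 13.2, 19.1, 19.7 and 10.5 CPM in control tumors. This was a log2 change of -2.83 ± 0.15, or 7.11-fold (adjusted p = 8.0e-11). FOSB changed by -2.43 ± 0.22, JUNB by -2.23 ± 0.12 and DUSP1 by -2.07 ± 0.11 on the log2 scale (largest adjusted p = 4.5e-08). DUSP1 was at 47.7, 59.6, 39.2 and 46.1 CPM in control tumors, under every monolayer library. FOS changed by -1.53 ± 0.29 (adjusted p = 0.00022), MYC by -1.47 ± 0.084 (adjusted p = 1.5e-10) and FOSL1 by -0.56 ± 0.083 (adjusted p = 1.6e-05). MYC stood at 158 to 172 CPM there against 433 to 499 CPM in control cells.

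JUN and IER2 went the other way. JUN was at 183, 231, 192 and 228 CPM in control tumors, above all monolayer libraries, with a log2 change of 1.15 ± 0.12 (adjusted p = 1.8e-07). IER2 was at 317, 366, 320 and 346 CPM and changed by 0.60 ± 0.097 (adjusted p = 3.7e-05). IER2 lies on chromosome 19, whose median was 0.26 here, and the centred change was 0.35 (adjusted p = 0.0047). EGR1 had a change of 0.035 ± 0.26 (95% interval -0.52 to 0.59, adjusted p = 0.915).

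DDX4-null tumors against DDX4-null monolayers again gave 2 higher and 7 lower members, in a background of 69.8% of 13277 genes called, 34.6% higher and 35.3% lower. Groups did not overlap for 8 members, against 63.4% of genes, and the members' median log2 change was -0.70, beside -0.0025 over all genes. ATF3 had the largest fall at -3.32 ± 0.19 (adjusted p = 6.4e-09), from 174 to 201 CPM down to 10.4, 23.01, 21.8 and 17.1 CPM. MYC changed by -2.36 ± 0.19 (adjusted p = 1.2e-07) and DUSP1 by -2.20 ± 0.15 (adjusted p = 2.7e-08), to 34.2, 52.9, 48.8 and 59.5 CPM. EGR1 changed by -0.92 ± 0.19 (adjusted p = 0.00061) and JUNB by -0.81 ± 0.13 (adjusted p = 7.4e-05). JUN rose by 1.45 ± 0.10 (adjusted p = 4.0e-08), to 209, 204, 194 and 244 CPM, and IER2 rose by 0.66 ± 0.13 (adjusted p = 0.00059), to 413, 313, 319 and 420 CPM.

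FOS, FOSB and FOSL1 were near the threshold in this last comparison. FOSL1 changed by -0.44 ± 0.18 (adjusted p = 0.0446), and by -0.24 without DDX4-null cells 2 (adjusted p = 0.201). It was also lost without DDX4-null tumor 3 (adjusted p = 0.126) or 4 (adjusted p = 0.0975). FOSB changed by -0.36 ± 0.15 (adjusted p = 0.0453) and passed in 6 of 16 alternatives. It was lost without DDX4-null cells 1, 2 or 3 or DDX4-null tumor 1 or 3, with adjusted p up to 0.132. It was also lost with library totals (adjusted p = 0.0763), with DESeq2 (adjusted p = 0.0541), with no filter (adjusted p = 0.0521), with the replicate block (adjusted p = 0.0561) and in the model of all 16 libraries (adjusted p = 0.127). FOS, at -0.59 ± 0.26 (adjusted p = 0.0531), did not pass, but did so in 6 alternatives, among them those without DDX4-null tumor 3 (adjusted p = 0.0415) or 4 (adjusted p = 0.0034). The others were DESeq2, no filter, centring by chromosome and the replicate block (-0.69, adjusted p = 0.0121). IER2 was lost after centring by chromosome (0.30, adjusted p = 0.0602). The comparisons of setting and of genotype share the monolayer and tumor libraries with each other, so their values stand side by side and are not independent.

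**Figure D3:**
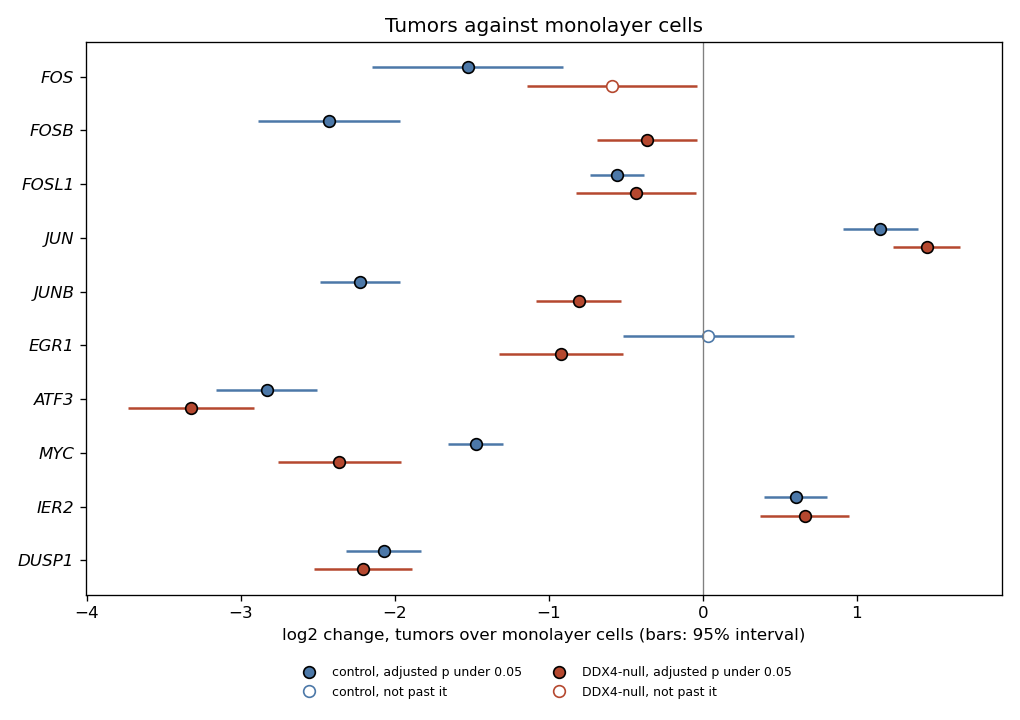
Log2 change of tumors over monolayer cells for each gene, in control (blue) and DDX4-null libraries (red), with bars for the 95% interval and filled points for an adjusted p under 0.05. JUN and IER2 lie right of 0 in both, and ATF3, DUSP1, MYC and JUNB lie left of 0 in both, from -0.81 to -3.32.

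Within the Jun pair the balance of RNAs changed with the setting. Per kilobase of exon (GENCODE v29), the ratio of JUN to JUNB was 0.217, 0.207, 0.211 and 0.192 in control cells and 0.314, 0.293, 0.322 and 0.333 in DDX4-null cells, so JUNB RNA was the more abundant in all 8 monolayers. The ratio was 2.07, 1.90, 2.20 and 2.54 in control tumors and 1.83, 1.15, 1.39 and 1.83 in DDX4-null tumors, so JUN RNA was the more abundant in all 8 tumors. The ratio is taken within a library and does not depend on its scaling. The 4 groups did not overlap in it, and the DDX4-null libraries were higher than controls in cells and lower than controls in tumors. In tumors the gap was narrow, between 1.90 in a control and 1.83 in a DDX4-null library, and the ratio was not tested. In the edgeR test on the 8 tumors neither JUN (adjusted p = 0.899) nor JUNB (adjusted p = 0.0803) passed between genotypes.

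Of FOS, FOSB and FOSL1, FOSL1 had by far the most RNA in every group. Their relative FOSL2 was in the count table but was not part of this share. Per kilobase FOSL1 made up 96.2% to 96.8% of FOS, FOSB and FOSL1 RNA in control cells and 97.7% to 99.2% in control tumors. In DDX4-null cells and DDX4-null tumors its share was 98.3% to 98.8% and 97.8% to 99.1%. In mean level, FOSL1 was at 398, 469, 269 and 343 CPM per kilobase in control cells, DDX4-null cells, control tumors and DDX4-null tumors. FOS was at 7.61, 5.41, 2.66 and 3.55 and FOSB at 6.53, 1.71, 1.22 and 1.31 on the same scale. The ratio of FOS to FOSB per kilobase was 1.29, 0.995, 1.03 and 1.40 in control cells and 3.02, 2.97, 2.90 and 3.88 in DDX4-null cells, without overlap. In tumors it was uneven, from 0.933 to 4.41 in controls and 1.33 to 3.92 in DDX4-null libraries.

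**Figure D4:**
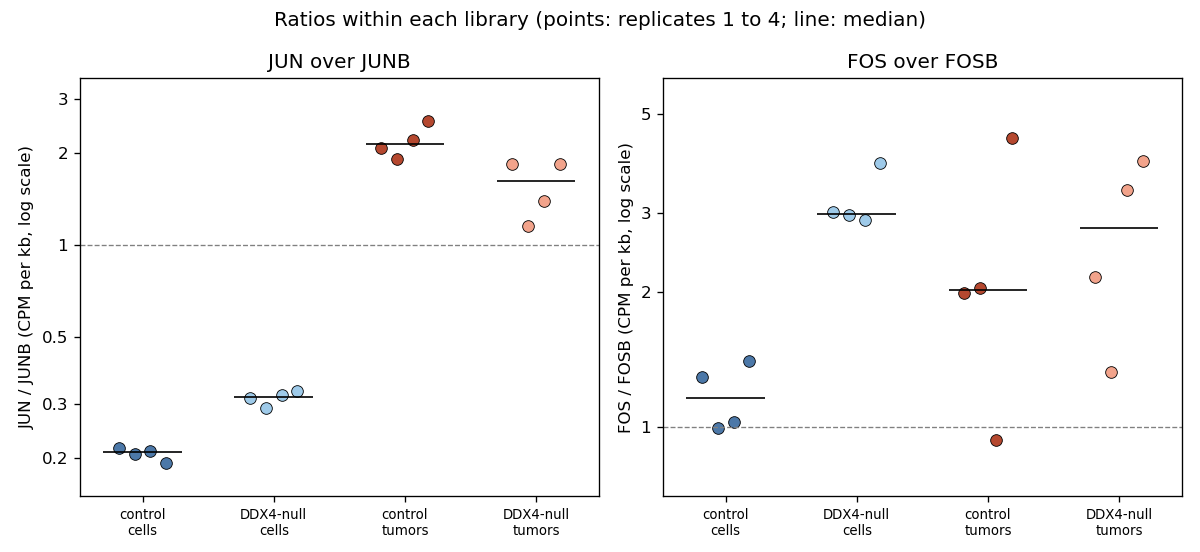
Ratios within each library, JUN over JUNB and FOS over FOSB in CPM per kilobase on log axes, with points for replicates 1 to 4, lines for medians and a dashed line at equal levels. JUN over JUNB lies at 0.192 to 0.333 in all monolayers and at 1.15 to 2.54 in all tumors.

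The spread between replicates differed by gene and group. The coefficient of variation (SD over mean of CPM) had a median over the 10 genes of 10.2% in control cells, 10.1% in DDX4-null cells, 17.3% in control tumors and 21.6% in DDX4-null tumors. FOS had the highest value in each tumor group, 59.3% and 47.9%, and its highest control tumor was 4.47 times its lowest, on 80 to 241 counts. In control tumors FOSB followed with 51.4% and EGR1 with 40.5%, and FOSL1 was the most even at 1.47%.

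Across the 4 groups the order of mean levels fell into a few shapes. FOS, FOSB and JUNB were highest in control cells, followed by DDX4-null cells, DDX4-null tumors and control tumors. For FOSB and JUNB only the libraries of both tumor groups overlapped between neighbours in that order. Between groups that are not neighbours, FOSB in control tumor 2 (11.9 CPM) lay above every DDX4-null cell library (8.18 to 10.7 CPM). FOS libraries overlapped from DDX4-null cells downward. ATF3, MYC, DUSP1, FOSL1 and EGR1 were highest in DDX4-null cells. For ATF3 and MYC that group stood clear of control cells, and control cells of the tumors. For DUSP1 both cell groups overlapped, for FOSL1 all neighbours did, and for EGR1 only DDX4-null cells stood clear. JUN and IER2 were highest in tumors, where genotypes overlapped, as they did in cells.

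The genes whose pattern over the 16 libraries was nearest to a member were found by the root mean square difference of log2(CPM + 0.5) after centring each gene on its own mean, among 13616 genes. For ATF3 they were the growth factor TGFB2 (0.245), ZNF860 (0.266) and TINAGL1 (0.306), and DUSP1 ranked 45 and MYC 63. TGFB2 had mean levels of 79.7, 109, 10.1 and 10.1 CPM in control cells, DDX4-null cells, control tumors and DDX4-null tumors. For EGR1 they were FAM131C (0.319), EFHD2 (0.325) and CBX2 (0.330), and the nearest member, FOSL1, ranked 2141. For FOS they were BBLN (0.487), GNG10 (0.494) and TMEM267 (0.498), with JUNB at rank 92 and FOSB at 1938. For FOSL1 they included ISG20 (0.141) and SNRPA (0.146). The distance was 0.556 between FOS and JUNB and 0.532 between EGR1 and FOSL1, beside 0.585 between ATF3 and DUSP1. Genes were not scaled to equal spread, so genes that vary little lie near many others and these distances do not order the pairs. EGR1 ranked 7197 from FOSL1, whereas DUSP1 ranked 45 from ATF3.

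Other rapidly induced genes, a list of 28 of which 27 were tested, also split in DDX4-null monolayers, where 7 rose and 12 fell. The shares of all genes called were 35.0% higher and 32.3% lower, and the list counts here and in the next paragraph are to be read against them. Medians of the 11 pathway lists ran from -0.33 (MYC network) to 0.37 (RNA decay) in this comparison, beside 0.021 over all genes. ARC, a synaptic gene induced by activity, changed by 3.11 ± 0.17 on the log2 scale, from 1.48 ± 0.270 to 12.8 ± 1.44 CPM (SD, n = 4). IER3, a survival gene induced by NF-kB and ERK, changed by -1.81 ± 0.14. Of 12 ERK feedback regulators 4 rose and 3 fell, among them SPRED2 (0.73 ± 0.11), an inhibitor of RAF activation, and the ERK phosphatase DUSP6 (-0.66 ± 0.11). Upstream, of 13 ERK pathway kinases and their activators 3 rose and 7 fell, with the receptor EGFR at -1.75 ± 0.10 (380 to 113 CPM) and BRAF at -1.11 ± 0.098. Of 7 JNK and p38 pathway kinases 5 rose and 0 fell, with MAP2K6 at 1.97 ± 0.18 and MAP2K3 at 0.93 ± 0.12, both activators of p38. Of 6 genes for SRF and its partners 1 rose and 3 fell, and the SRF partners ELK3 and ELK1 moved apart at 1.00 ± 0.094 and -0.99 ± 0.097.

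Partners and targets in the same monolayer comparison also moved in both directions. Of 10 leucine zipper partners 3 rose and 3 fell, led by BATF3 (from 0.0806 ± 0.0331 to 6.75 ± 0.632 CPM) and JDP2 (from 2.74 ± 0.412 to 20.8 ± 1.79 CPM), both repressors or partners of AP-1. Of 8 AP-1 targets 3 rose and 4 fell, with the urokinase receptor PLAUR at -1.59 ± 0.10. Of 8 MYC targets 4 rose and 2 fell, with the nucleolar genes NOP56 at 1.36 ± 0.11 and FBL at -0.69 ± 0.095. Of 9 genes of the MYC network 2 rose and 5 fell, with the MYC antagonists MXD1 at -1.10 ± 0.10 and MGA at -0.87 ± 0.10. Of 4 genes for decay of AU-rich RNAs 2 rose, HNRNPD at 0.68 ± 0.10 and ZFP36L2 at 0.54 ± 0.15, and of 3 EGR co-regulators 1 fell, the EGR repressor NAB2 at -0.35 ± 0.10. ZFP36L2 and NAB2 no longer passed after centring by chromosome (adjusted p = 0.0584 and 0.0519).

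In DDX4-null tumors 1 of the 27 other rapidly induced genes passed, ZFP36, which binds AU-rich RNAs and promotes their decay. It was at 19.9 ± 2.41 CPM in control tumors and 32.5 ± 5.98 CPM in DDX4-null tumors, a log2 change of 0.71 ± 0.14 (adjusted p = 0.0289). The call was lost without control tumor 1, 2 or 3 (largest adjusted p = 0.110). With edgeR 0 of 81 genes of the other 10 lists passed, 24 had an unadjusted p under 0.05, and DESeq2 called 6. Of all 12942 genes edgeR called 270 (2.09%) and DESeq2 called 880. The share of all genes with an unadjusted p under 0.05 was not counted. List medians ran from -0.091 (AP-1 targets) to 0.29 (EGR co-regulators), beside -0.00061 over all genes.

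Between control tumors and control cells, 3 of 26 other rapidly induced genes rose and 19 fell, with the kinase SIK1 at -2.72 ± 0.11 and PPP1R15A, a stress-induced phosphatase subunit, at -1.83 ± 0.095. Of all genes 33.9% were higher and 31.0% lower. The list's median log2 change of -0.74 was the lowest of the 11 lists, RNA decay had the highest at 0.30, and all genes had 0.020. Of 12 ERK feedback regulators 3 rose and 7 fell, where SPRY4 rose from 118 ± 9.02 to 624 ± 24.7 CPM and the phosphatase DUSP5 changed by -1.79 ± 0.097 from a mean of 1037 to one of 299 CPM. Of 9 leucine zipper partners 1 rose and 5 fell (CREM -0.998 ± 0.092 and MAFG -0.91 ± 0.086), and of 10 AP-1 targets 5 rose and 3 fell (TIMP1 -1.81 ± 0.11). Of 8 MYC targets 2 rose and 5 fell (ODC1 -1.38 ± 0.10 and NPM1 -0.79 ± 0.11), and of 9 MYC network genes 3 rose and 4 fell (MXI1 -0.80 ± 0.10 and MXD1 -0.76 ± 0.097). ERK pathway kinases rose in 2 and fell in 4 of 13 cases (EGFR -1.89 ± 0.088 and BRAF -0.91 ± 0.094), and JNK and p38 kinases rose in 4 and fell in 1 of 7 (MAP2K6 2.97 ± 0.18 and MAPK9 0.35 ± 0.085). SRF and its partners rose in 3 and fell in 2 of 6 (ELK3 1.73 ± 0.10 and ELK1 -0.46 ± 0.09), RNA decay genes rose in 2 of 4 (HNRNPD 0.52 ± 0.088 and ZFP36L2 0.69 ± 0.14) and SP1 alone fell among 3 EGR co-regulators (-0.38 ± 0.089, adjusted p = 0.0565 with library totals).

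Between DDX4-null tumors and DDX4-null cells, 5 of 27 other rapidly induced genes rose and 17 fell, with a median of -0.58 in a range from -0.63 (MYC targets) to 0.51 (SRF and its partners), led by ARC (-3.98 ± 0.20) and SIK1 (-1.77 ± 0.11). Among all genes 34.6% rose and 35.3% fell. Of 12 ERK feedback regulators 4 rose and 7 fell, with SPRY4 at 2.58 ± 0.12 and DUSP6 at 1.82 ± 0.15, both higher in tumors. MYC targets rose in 2 and fell in 5 of 8 cases (NOP56 -1.41 ± 0.12 and NCL -1.14 ± 0.11), and MYC network genes rose in 5 and fell in 1 of 9 (MLXIP 1.22 ± 0.13 and MXD3 0.70 ± 0.12). AP-1 targets rose in 4 and fell in 1 of 10 (the protease PLAU -2.38 ± 0.14), and zipper partners rose in 2 and fell in 4 of 10 (JDP2 -4.46 ± 0.25, and BATF3 with a mean of 6.75 CPM in cells and 0.248 CPM in tumors, near the level of 3 counts in a library). ERK pathway kinases rose in 4 and fell in 3 of 13 (ARAF 0.93 ± 0.12), and JNK and p38 kinases rose in 1 and fell in 2 of 7 (MAP2K6 0.75 ± 0.13 and MAP2K3 -0.64 ± 0.14). SRF and its partners rose in 4 of 6 cases (ELK3 0.62 ± 0.088 and ELK1 0.60 ± 0.091, the latter not past the threshold after centring by chromosome, adjusted p = 0.0630), 1 of 3 EGR co-regulators rose (NAB2 0.78 ± 0.15) and 0 of 4 RNA decay genes passed by edgeR, where 0 had an unadjusted p under 0.05 and DESeq2 called 0.

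For the difference between both genotype changes, 12 of 27 other rapidly induced genes had a positive contrast and 6 a negative one, with ARC at -2.75 ± 0.31 and CCN2, a matricellular protein gene, at -0.94 ± 0.12. Over all genes 26.0% of contrasts were called positive and 26.8% negative. List medians ran from -0.38 (JNK and p38) to 0.47 (MYC network), beside -0.017 over all genes. The ERK feedback list held 4 more positive and 2 more negative contrasts of 12 (DUSP6 1.31 ± 0.21 and ETV5 0.41 ± 0.10). EGFR (1.41 ± 0.14) and BRAF (1.20 ± 0.13) were among 4 more positive contrasts and 1 more negative one of 13 ERK pathway kinases, and MAP2K6 (-2.23 ± 0.22) and MAP2K3 (-0.98 ± 0.19) among 5 more negative and 1 more positive of 7 JNK and p38 kinases. The MYC network had 6 more positive and 1 more negative of 9 (MXD1 1.17 ± 0.18 and MLXIP 0.83 ± 0.17), MYC targets 4 of each among 9 (NOP56 -1.47 ± 0.16 and NCL -0.74 ± 0.12) and AP-1 targets 4 and 3 of 10 (TIMP1 2.01 ± 0.19 and PLAU -1.74 ± 0.17). SRF and its partners had 2 of each among 6 (ELK3 -1.12 ± 0.13 and ELK1 1.05 ± 0.12), zipper partners 4 and 3 of 10 (MAFG 0.90 ± 0.12), EGR co-regulators 1 and 0 of 3 (NAB2 0.72 ± 0.18) and RNA decay genes 0 and 1 of 4 (HNRNPD -0.52 ± 0.13).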

How the data were processed

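RNA of 16 PC3 libraries was measured, 4 in each of 4 groups taken from the labels. The authors deposited raw read counts per Ensembl gene, used as deposited. Reads went through Trimmomatic 0.39, STAR 2.7.10a and featureCounts 2.0.3 with build GRCh37, per the submitters' processing notes, and per the labels' protocols libraries were made with a stranded mRNA kit. Annotation, strand setting and any host-read filter were not given in the sources used here. Symbols were found for 19511 IDs. Chromosomes and exon lengths came from GENCODE v29 (GRCh38), matched by Ensembl ID.

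Genes were tested in edgeR 4.0.16 (R 4.3.3) by quasi-likelihood F tests with TMM scaling, filterByExpr and Benjamini-Hochberg adjustment at 0.05 over all genes tested. Each of 4 comparisons was fitted on its 8 libraries and the difference of genotype changes on all 16. Levels are CPM with TMM factors over 16 libraries, and SE is the log2 change over the square root of F. A count of 0 allows up to 3 counts (0.118 to 0.246 CPM), and intervals of changes rest on 4 libraries per group. No replicate pair agreed within sampling noise (chi-square per degree of freedom at least 3.75). Alternatives were DESeq2 1.42.0, RLE factors, totals as library size, 2 further filters, a replicate block, centring by chromosome, a model of all libraries and leaving out each library. The steps were tested on simulated data. Far fewer genes were changed there than were called here, except in the genotype comparison of tumors. That test thus did not check scaling or false calls under such widespread change. All members were named, with up to 2 called genes of smallest p per pathway list and comparison. Some genes that this rule names are not reported here. The members and lists were chosen with earlier results of these data known.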

Additional observations from a re-analysis of the deposited data

Results flagged for a closer look

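Of the 40 sets of 4 libraries (10 genes in 4 groups), 4 had a library far from the other 3 by Dixon's test on CPM, where chance alone gives about 1 in 20. FOSL1 stood at 1204 CPM in DDX4-null cells 2, against 774 to 785 CPM in the other 3. JUNB stood at 113 CPM in DDX4-null cells 4 and at 62.5 CPM in control tumor 2. ATF3 stood at 101 CPM in control cells 4.

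The change from control to DDX4-null differed between tumors and cells for 4 genes by the interaction test of edgeR (adjusted over all genes): FOSB by 2.06, JUNB by 1.41, EGR1 by -0.97 and MYC by -0.90 on the log2 scale. The same test called 52.8% of all 13603 genes, so a call alone does not set these 4 genes apart. Only JUNB pointed in opposite directions with an interval that left out 0 in both settings, -1.09 to -0.64 in cells and 0.23 to 0.86 in tumors, and it did not pass the adjusted test in tumors.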

How the results depend on the processing

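Over 870 values of the 10 genes under alternatives, 790 kept their direction and their side of the threshold, 31 were lost, 19 gained and 30 changed sign. Every sign change was of a gene that did not pass the test in that comparison. In tumors 1 of 10 genes (JUNB) was called with DESeq2, with the replicate block and in the model of all 16 libraries, in place of 0, and 0 to 1 when a library was left out. Leaving out a library gave 6 to 7 called members for genotype in cells and 3 to 5 for the difference of genotype changes. For setting it gave 9 to 9 in control and 7 to 9 in DDX4-null libraries. Over all genes the same fits called 8315 to 8891 for genotype in cells and 6719 to 7313 for the difference. They called 7757 to 8331 and 8892 to 9519 for setting in control and DDX4-null libraries. All genes called in tumors went from 270 to 880 with DESeq2, 808 in the model of all libraries, 425 with the replicate block, 134, 47 and 26 without control tumor 1, 2 or 3, and 129 without DDX4-null tumor 2 or 3, and with library totals 97 rose and 168 fell in place of 127 and 143.

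Replicate numbers are no more than numbers in these labels. Same-numbered libraries of both cell groups correlated at -0.171, -0.229, 0.393 and 0.248 in their deviations from group means and those of tumors at 0.198, 0.176, 0.00884 and -0.0584, so not every library correlated best with its own number. With the replicate block the counts of called members were 7, 1, 9, 9 and 4 for genotype in cells, genotype in tumors, setting in control and in DDX4-null libraries, and the difference. In the same order these fits called 8883, 425, 8332, 9368 and 7330 of 13006, 12942, 12858, 13277 and 13603 genes.

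Sign changes by setting were as follows. Centring by chromosome gave -0.023 for DUSP1 in cells and -0.015 in tumors, -0.043 for EGR1 between control tumors and cells, and -0.15 for FOSL1, -0.086 for IER2 and 0.0086 for DUSP1 in the difference. Library totals gave -0.037 for JUN and -0.033 for DUSP1 in tumors, and -0.033 for FOSL1 and -0.096 for IER2 in the difference. The replicate block gave -0.029 for EGR1 between control tumors and cells. Leaving out 1 library gave -0.038 to 0.13 for IER2 in cells, and in tumors -0.043 to 0.53 for FOSB, -0.037 to 0.083 for JUN, -0.034 to 0.40 for EGR1, -0.078 to 0.16 for DUSP1 and -0.24 to 0.074 for MYC. It gave -0.14 to 0.31 for EGR1 between control tumors and cells, and -0.019 to 0.15 for IER2 and -0.25 to 0.0078 for DUSP1 in the difference. The cause of these shifts was not tested.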
